A study of Mus musculus with 25 samples.

Results

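The genes described here encode the enzymes that make, use and recycle glutathione and that remove peroxides and superoxide: glutathione S-transferases, glutathione peroxidases, peroxiredoxins, superoxide dismutases, catalase, heme oxygenase 1, NAD(P)H quinone dehydrogenase 1, thioredoxin 1, thioredoxin reductase 1 and the enzymes of glutathione synthesis and reduction. The rule for members used gene symbols and no measured value: every probe set annotated with 1 symbol that began with Gst, Gpx, Prdx or Sod (the last 3 followed by a digit) or that was Cat, Hmox1, Nqo1, Gclc, Gclm, Gsr, Gss, Txn1 or Txnrd1. This gave 49 probe sets for 36 genes, of 12422 probe sets on the array other than controls, where 8251 genes are named alone by a probe set. A probe set was tested when its signal reached the median of its own array on at least 2 arrays, which held for 40 of the 49 probe sets and 32 of the 36 genes, and for 7440 probe sets in all. The 2 probe sets for Prdx1, another cytosolic peroxiredoxin, also carried the symbol of a further gene and were therefore not members.

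RNA of lungs from the inbred mouse strain C57BL/6 was measured on 24 arrays of the Affymetrix type MG-U74Av2. Calorie-restricted (CR) mice, whose calories had been cut by 2/3, were sampled at 2, 4, 12, 24, 48, 72 and 96 h with 2 arrays each. Fed mice were sampled at 2, 4 and 12 h with 2 arrays each and at 0 h with 4 arrays, of which 2 carried the number 1 and 2 the number 2. By the labelled hours, fed 0 h has the clock hour of CR 24, 48, 72 and 96 h, while fed 2, 4 and 12 h have other ones. The labels of the fed mice say that they were always fed but also carry the words of the 2/3 reduction. They were read as controls without restriction. Animal age, sex and whether arrays a and b of a group came from different mice are not stated in the labels. The spread behind the p-values may therefore be technical.

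Glutathione is a small sulfur-containing peptide that cells keep at high concentration. Glutathione S-transferases couple it to reactive chemicals, glutathione peroxidases use it to reduce hydrogen peroxide and lipid peroxides, and glutathione reductase restores it with NADPH. Peroxiredoxins reduce peroxides with electrons from thioredoxin, and superoxide dismutases and catalase act in sequence on superoxide and hydrogen peroxide. The lung meets more oxygen than most organs, and its airway club cells and macrophages are known for high levels of several of these enzymes. Many of the genes are known targets of NRF2, a transcription factor that binds the antioxidant response element in their promoters when oxidants or electrophiles release it from its inhibitor KEAP1.

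Promoter sequences were available for 30 of the 36 genes (RefSeq, mouse build GRCm38.p6), with 39 promoters between them. The core of the antioxidant response element, searched as TGACNNNGC and on the other strand as GCNNNGTCA, lay within 250 bases before the start in 5 of the 30 genes: Gclm, Gsta3, Gstm5, Sod1 and 1 of the 3 starts of Txnrd1. Of the 39 promoters 12.8% held the core, against 10.2% of all 32841 promoters in the table, and by genes the shares were 16.7% and 11.5%. These shares are a description, since a match in letters is not a bound site. The promoters of 3 genes follow, 5′ to 3′, with the core in capitals: Gsta3 because it was the member that differed between the days of CR, Gclm as a classical NRF2 target, and Prdx2 because it gave the largest fall that passed the test. The window of Prdx2 holds no core. Gsta3 lies at chr1:21240335-21240584 on the plus strand with its core beginning at position -121 from the start, Gclm at chr3:122245307-122245556 on the plus strand with its core at position -134, and Prdx2 at chr8:84969372-84969621 on the plus strand.
Gsta3: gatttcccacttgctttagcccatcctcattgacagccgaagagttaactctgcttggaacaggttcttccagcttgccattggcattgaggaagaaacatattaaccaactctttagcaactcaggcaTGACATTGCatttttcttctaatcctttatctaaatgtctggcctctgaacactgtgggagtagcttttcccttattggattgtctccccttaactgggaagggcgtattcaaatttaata
Gclm: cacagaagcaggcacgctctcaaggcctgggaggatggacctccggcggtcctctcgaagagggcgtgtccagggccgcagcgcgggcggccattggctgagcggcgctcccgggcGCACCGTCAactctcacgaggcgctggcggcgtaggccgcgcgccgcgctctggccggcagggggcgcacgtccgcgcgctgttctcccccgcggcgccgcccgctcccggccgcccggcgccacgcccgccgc
Prdx2: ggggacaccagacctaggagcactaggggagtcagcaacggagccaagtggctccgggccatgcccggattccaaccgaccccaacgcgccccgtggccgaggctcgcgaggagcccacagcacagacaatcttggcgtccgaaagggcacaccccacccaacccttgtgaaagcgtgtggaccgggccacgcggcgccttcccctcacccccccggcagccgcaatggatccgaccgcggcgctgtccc

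Signals are given after each array was scaled to the same median, in the array's own intensity units, and are comparable between arrays for 1 probe set but not between probe sets. The arrays fell into a pair of ranges by their brightest probe set, given here before scaling. It was 74440 to 99043 on 12 arrays and 31595 to 54315 on the other 12. The high range held CR 2, 12, 24 and 48 h, fed 12 h and number 1 of fed 0 h. At fed 12 h the brightest probe set was that of Sftpc, a surfactant gene of alveolar type II cells (90136.5 ± 6494 after scaling). Whether the ranges are a technical trait of the arrays or follow the level of such genes was not tested. The ratio of the 3' to the 5' probe set of Gapdh, a sign of RNA quality, lay between 1.01 and 1.66 except at CR 48 h (1.95 and 2.15) and in the 4 arrays of fed 0 h (1.76 to 2.02). Markers of lung epithelium were bright throughout: the 6 alveolar type II genes that passed the filter summed to 119215 to 209390 per array, while none of the 6 liver genes on the array passed. In a whole tissue, fewer cells of a type and less RNA per cell cannot be told apart.

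The members' range over the groups was near that of the array. The highest of the 11 group means was 1.27 to 5.59 times the lowest, with a median of 1.73, against 1.77 over all 7440 probe sets. Among the steadiest were Gstm3 (97681_f_at, 1.27 times), Gpx1, the cytosolic glutathione peroxidase (1.37), mitochondrial Sod2 (1.38), Gstp1 (1.38) and the heme-degrading enzyme Hmox1 (1.42). The group with the highest mean was fed 0 h for 16 of the 40 probe sets, or 40%, against 16.2% of all probe sets. The widest range, that of Gpx5 (161986_f_at), belongs to a dim probe set with a median signal of 187 and 2 arrays under the floor of 80.4 units that was set before taking log2.

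In the mean of the 4 times after the first 12 h of CR, peroxiredoxins 2 and 4, the phospholipid hydroperoxide glutathione peroxidase Gpx4 and the theta class transferase Gstt1 were lower than in fed 0 h lungs, by 1.44 to 1.80-fold. No member passed as higher in that mean. In the mean of CR 24, 48, 72 and 96 h against fed 0 h, 5 of 40 probe sets (4 genes) passed as lower and 0 as higher (limma, Benjamini-Hochberg adjusted p under 0.05 over all 7440 probe sets), with 13 of 40 at an unadjusted p under 0.05. Of all probe sets 18.1% passed in this comparison, 9.85% as higher and 8.24% as lower, and of the members 12.5%, each as lower. Whether the shares differ was not tested. The median log2 difference of the members was -0.20, against -0.005 over all probe sets, and 29 of 40 were below 0. At single times the members called were 1 lower at 24 h, 0 at 48 h, 1 lower at 72 h and 1 higher and 1 lower at 96 h, where 2.82%, 5.44%, 5.82% and 6.49% of all probe sets passed. By direction these background shares were 2% higher and 0.82% lower at 24 h, 2.53% and 2.92% at 48 h, 3.68% and 2.14% at 72 h, and 3.92% and 2.57% at 96 h. The members called at single times were Gsta3 at 24 and 96 h, Prdx2 99608_at at 72 h and Prdx2 100331_g_at at 96 h. At 48 h, 10 of 40 had an unadjusted p under 0.05. By role, 3 of the 6 tested probe sets of peroxiredoxins and thioredoxin passed, 1 of 5 of glutathione peroxidases, 1 of 6 of transferases outside the alpha and mu classes, and 0 of the 23 others.

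Prdx2, an abundant cytosolic peroxiredoxin that is also a major protein of red blood cells, showed the largest of these falls. Its probe set 100331_g_at read 4284 and 3535 at CR 24 h, 3601 and 3904 at CR 48 h, 3677 and 3715 at CR 72 h and 4406 and 2760 at CR 96 h, against 8718 and 9619 on the fed 0 h arrays of number 1 and 4834 and 4915 on those of number 2. All 8 late CR arrays lay below all 4 fed 0 h arrays, a separation seen for no other member. The mean was 3735 ± 506 in late CR (SD, n = 8) and 7021 ± 2506 in fed 0 h (SD, n = 4), 1.80-fold lower (95% confidence interval 1.39 to 2.34, limma adjusted p = 0.00425). A second probe set, 99608_at, averaged 578 ± 68.0 in late CR and 937 ± 316 in fed 0 h, 1.56-fold lower (1.22 to 1.99, adjusted p = 0.0144), with 6 of 8 late arrays below all fed 0 h arrays. The third, 100330_at, was under the floor on all 24 arrays and gave no information.

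**Figure D1:**
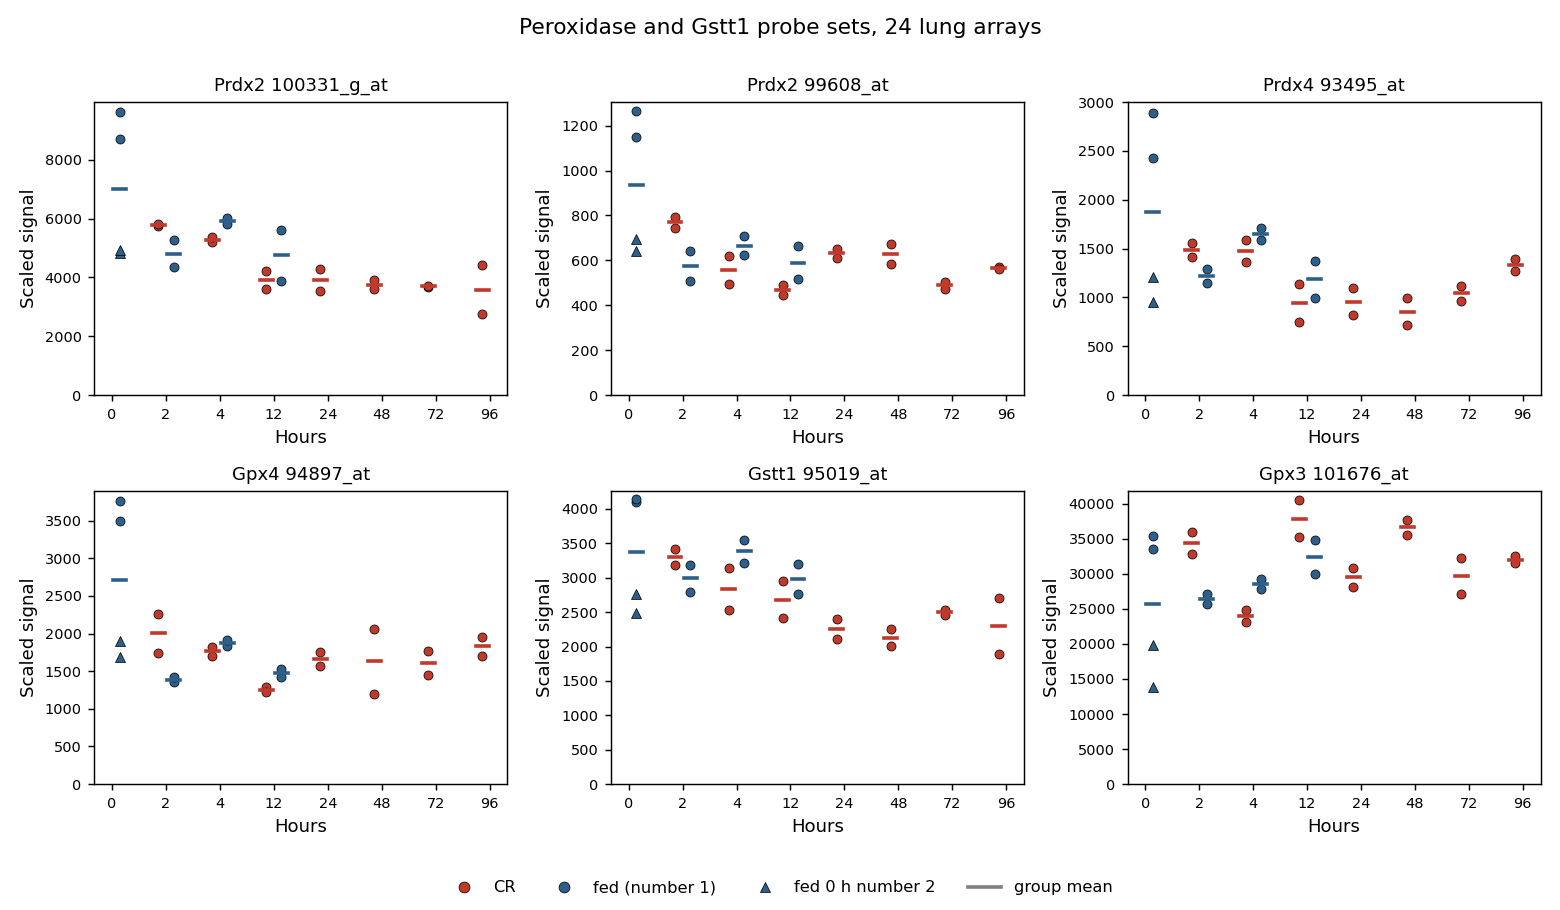
Scaled signal (y axis, linear, from 0) by hour (x axis, times evenly spaced and not to scale) for Prdx2 (2 probe sets), Prdx4, Gpx4, Gstt1 and Gpx3. Red circles are CR arrays, blue circles and triangles fed arrays, and bars group means. In the first 5 panels the fed 0 h arrays of number 1 stand above those of number 2. For Gpx3 the number 2 arrays, at 13924 and 19875, are the lowest of the 24.

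Prdx4, the peroxiredoxin of the endoplasmic reticulum, averaged 1046 ± 223 in late CR (n = 8) and 1872 ± 936 in fed 0 h (n = 4), 1.65-fold lower (1.17 to 2.31, limma adjusted p = 0.0387). Gpx4, which protects membranes from lipid peroxides, averaged 1683 ± 278 in late CR and 2717 ± 1069 in fed 0 h, 1.54-fold lower (1.16 to 2.03, adjusted p = 0.0327). Gstt1 averaged 2294 ± 277 in late CR and 3376 ± 876 in fed 0 h, 1.44-fold lower (1.17 to 1.78, adjusted p = 0.0181). The fed 0 h arrays of Prdx4 fell into 2430 and 2892 for number 1 and 954 and 1212 for number 2, and those of Gpx4 into 3767 and 3503 for number 1 and 1694 and 1905 for number 2. The groups overlapped: 2 of 8 late arrays were below all fed 0 h arrays for Prdx4, 3 of 8 for Gpx4 and 6 of 8 for Gstt1. Without fed 0 h array 1a, the only one of the 5 probe sets that still passed was Prdx2 100331_g_at. The adjusted p of the other 4 was then 0.0832 to 0.172, and it was 0.0776 to 0.2 without array 1b, where the same 1 probe set still passed. Prdx4 was also past 0.05 without any 1 of CR 24 h 1a, 48 h 1a, 72 h 1a, 72 h 1b and 96 h 1b (adjusted p = 0.0513 to 0.0759), and Gpx4 without any 1 of CR 24 h 1b, 48 h 1a, 72 h 1b and 96 h 1b (0.0505 to 0.0705). At single times, Prdx2 was 1.84-fold lower by 99608_at at 72 h (adjusted p = 0.0371) and 1.92-fold lower by 100331_g_at at 96 h (0.0339). The 72 h call was lost without CR 72 h 1a or 1b, fed 0 h 1a or 1b, or fed 4 h 1a or 1b (0.0506 to 0.307), and the 96 h call without CR 96 h 1b, fed 0 h 1a or 1b (0.0773 to 0.544).

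The 5 falls depended on the fed 0 h number used as control. Against number 1 alone all 5 passed, by 1.81-fold for Gstt1 to 2.59-fold for Prdx4 (limma adjusted p = 3.05e-06 for Prdx4). Against number 2 alone none of the 5 passed: the log2 difference was -0.40 for Prdx2 100331_g_at (adjusted p = 0.117), -0.20 for Gstt1 (0.393), -0.11 for Gpx4 (0.722) and -0.07 for Prdx4 (0.855). Against the mean of fed 2, 4 and 12 h only Gstt1 passed among them, at 2294 ± 277 in late CR and 3118 ± 299 in these fed lungs (n = 8 and 6; 1.36-fold lower, 1.13 to 1.64, adjusted p = 0.0429), with all 8 late arrays below all 6 fed arrays. Gpx4 was then at a log2 difference of 0.09. Fed 2, 4 and 12 h lungs were taken at other clock hours than late CR. Wherever they serve as its control, diet and clock hour cannot be told apart. Of all probe sets 49.4% passed against number 1, 7.76% against number 2 and 6.34% against fed 2 to 12 h, and of the 40 members 17, 2 and 3 passed. Split by direction, the members passed as 5 higher and 12 lower against number 1 (25.7% and 23.8% of all probe sets), 1 and 1 against number 2 (4.81% and 2.94%), and 1 and 2 against fed 2 to 12 h (3.62% and 2.73%). Within the arrays of high top signal, CR 24 and 48 h against number 1 gave 18 members, or 45%, beside 46% of all probe sets. Within those of low top signal, CR 72 and 96 h against number 2 gave 2 members, or 5%, beside 10.7%.

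Sums over markers of red cells, macrophages and several other cell types differed between the fed 0 h numbers as well, while those of club cells and cardiac muscle overlapped. The summed signal of the 7 erythroid marker genes that passed the filter, of 14 listed, was 59859 to 63862 at CR 24 h, 53138 to 60758 at CR 48 h, 38082 to 42547 at CR 72 h and 46897 to 48888 at CR 96 h, against 79467 to 84945 in fed 0 h number 1 and 39183 to 41515 in number 2. In late CR against fed 0 h 0 of these 7 genes passed, while between the numbers 3 passed, all higher in number 1, beside 39.9% of all probe sets. Most of the erythroid sum came from Hba-a1, which alone averaged 69932 at fed 12 h, beside sums of 74147 to 82416. The erythroid sum was 53138 to 84945 on all arrays of high top signal and 38082 to 48888 on the others. For this sum the number and the range of the arrays cannot be told apart. The 13 tested macrophage genes summed to 35176 to 39665 at CR 24 h, 37417 to 38768 at CR 48 h, 64374 to 65402 at CR 72 h and 61937 to 67623 at CR 96 h, against 64249 to 70400 in fed 0 h number 1 and 31475 to 41197 in number 2. CR 24 and 48 h thus lay within the range of number 2, and CR 72 and 96 h near that of number 1. Between the numbers 7 of the 13 passed as higher in number 1 and 1 as lower, against 20% and 19.9% of all probe sets. The sums of 8 B-cell genes (13604 to 13698 in number 1, 5061 to 7845 in number 2), 8 neutrophil genes (7596 to 8817 in number 1, 4595 to 5111 in number 2) and 6 alveolar type II genes (196662 to 208536 in number 1, 130579 to 163133 in number 2) were also higher in number 1. Those of 2 ciliated cell genes (2600.4 to 2683 in number 1, 4924 to 5185 in number 2) and 12 endothelial genes (56168 to 56610 in number 1, 69454 to 83010 in number 2) were lower. The sums of 7 club cell genes overlapped (130421 to 147749 in number 1, 130327 to 142348 in number 2). So did those of 9 cardiac muscle genes (29726 to 29857 in number 1, 27043 to 34641 in number 2). Lyz2 is counted in both the macrophage and the type II sum. In late CR against fed 0 h, where 9.85% of all probe sets passed as higher and 8.24% as lower, 6 of 9 cardiac muscle markers and 4 of 8 B-cell markers were lower, and 5 of 12 endothelial markers were higher and 1 lower. The Gapdh ratio was 1.21 to 2.15 on the 8 late CR arrays, against 1.76 to 2.02 in fed 0 h. The same ratio for actin was 2.77 on CR 24 h 1a and 3.81 and 2.69 at CR 48 h. It was 1.63 to 1.80 on the other late CR arrays and 1.87 to 2.31 in fed 0 h. The part of these cell types, and of RNA quality, in the falls of Prdx2, Prdx4, Gpx4 and Gstt1 was not tested.

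Between the fed 0 h numbers 16 of the 40 probe sets differed, 10 higher in number 1 and 6 lower. That is 40%, beside 39.9% of all probe sets (20% higher, 19.9% lower), so the share among the members was near that of the array as a whole. Prdx4 was at 2661 ± 327 in number 1 and 1083 ± 182 in number 2 (SD, n = 2 each; 2.47-fold, limma adjusted p = 0.000134), and Txn1, the electron donor of the peroxiredoxins, at 25187 ± 4079 and 14121 ± 1535 in the same order (1.78-fold, adjusted p = 0.000617). The plasma glutathione peroxidase Gpx3 was 2.07-fold higher in number 1 (adjusted p = 2.4e-05), and Gpx4, both Prdx2 probe sets, Gstp1, Gstk1, Gstt1 and Gstz1 were 1.47 to 2.02-fold higher. Lower in number 1 were Cat 160479_at, Gclc, Gsta2 and a probe set each of Gstm1, Gstm2 and Gstm3, by 1.56 to 2.14-fold. Calls of 3 probe sets were lost without 1 of the fed 0 h arrays. They were Gstz1 without 1a (adjusted p = 0.0788) or 2b (0.0736), Gstk1 without 1b (0.0869) and Gstm2 161357_r_at without 1b (0.0638) or 2b (0.0668).

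**Figure D2:**
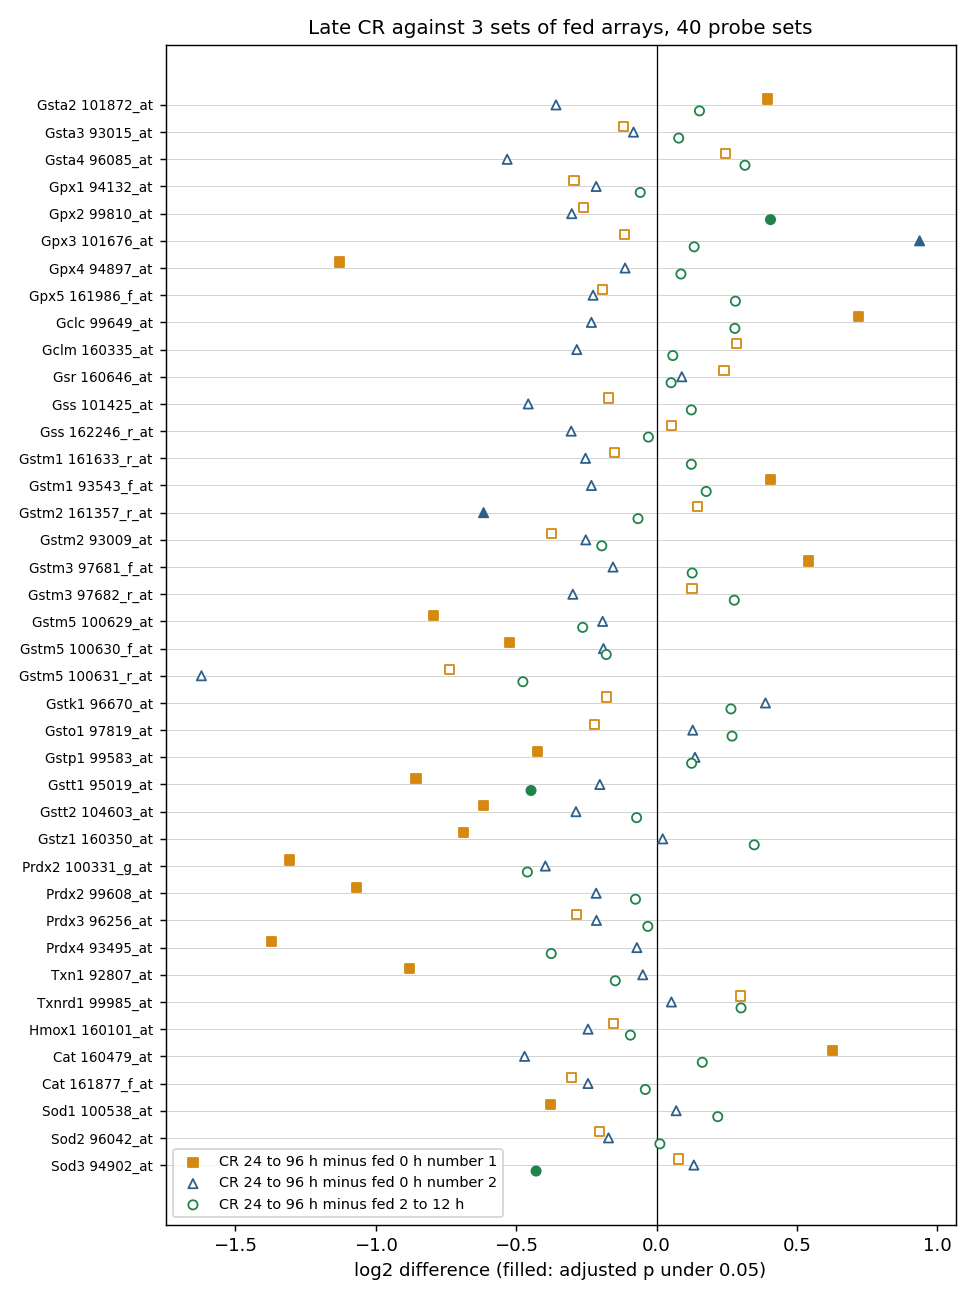
Log2 difference (x axis) of the late CR mean minus each of 3 sets of fed arrays for the 40 tested probe sets (rows): fed 0 h number 1 (squares), fed 0 h number 2 (triangles) and the mean of fed 2, 4 and 12 h (circles); filled symbols have a limma adjusted p under 0.05. Prdx4 runs through -1.37, -0.07 and -0.38, and 17, 2 and 3 symbols are filled in the same order of controls.

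Peroxidases outside the called falls gave a mixed picture. Gpx3 read 27178, 31939 and 37770 in late CR (lowest, median and highest of 8 arrays) and 33514 and 35420 in fed 0 h number 1 but 13924 and 19875 in number 2. Against fed 0 h as a whole it averaged 32005 ± 3492 in late CR and 25683 ± 10459 in fed 0 h, a log2 difference of 0.41 that did not pass (limma adjusted p = 0.115). Against number 2 alone it was 1.91-fold higher (1.61 to 2.27, adjusted p = 3e-05), with all 8 late arrays above both. Gpx2, a peroxidase best known from gut epithelium, was at 1657 ± 273 in late CR and 1999 ± 210 in fed 0 h (log2 -0.28, adjusted p = 0.129), yet against fed 2 to 12 h lungs, at 1239 ± 82.1 (n = 6), it was 1.32-fold higher (1.12 to 1.56, adjusted p = 0.0376). Every one of its 8 late arrays lay above every fed 2 to 12 h array. Fed 2 to 12 h lungs also lay below fed 0 h for Gpx2, as given below, so diet and clock hour cannot be told apart here. Gpx1 was at a late log2 difference of -0.25 (adjusted p = 0.0906), the mitochondrial peroxiredoxin Prdx3 at -0.25 (0.164) and Gpx5 at -0.21 (0.625).

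Of the alpha class transferases, which detoxify lipid peroxidation products, Gsta3 was the one that changed over the days of CR. It read 970 and 782 at CR 24 h, 880 and 1169 at CR 48 h, 1265 and 1471 at CR 72 h and 2465 and 2016 at CR 96 h, against 1285 and 1500 (number 1) and 1415 and 1299 (number 2) in fed 0 h. Both 96 h arrays were above every fed and every other CR array, and both 24 h arrays were below all 4 fed 0 h arrays. The 4 late times differed (limma moderated F test, adjusted p = 0.00441), as they did for 0.578% of all probe sets and for no other member. CR 24 h was 1.58-fold lower than fed 0 h (adjusted p = 0.0337) and CR 96 h was 1.62-fold higher (1.28 to 2.05, adjusted p = 0.0138), while the late mean as a whole did not pass (log2 -0.10, adjusted p = 0.557). Its 2 fed 0 h numbers were close, at 1393 ± 152 and 1357 ± 82.0.

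**Figure D3:**
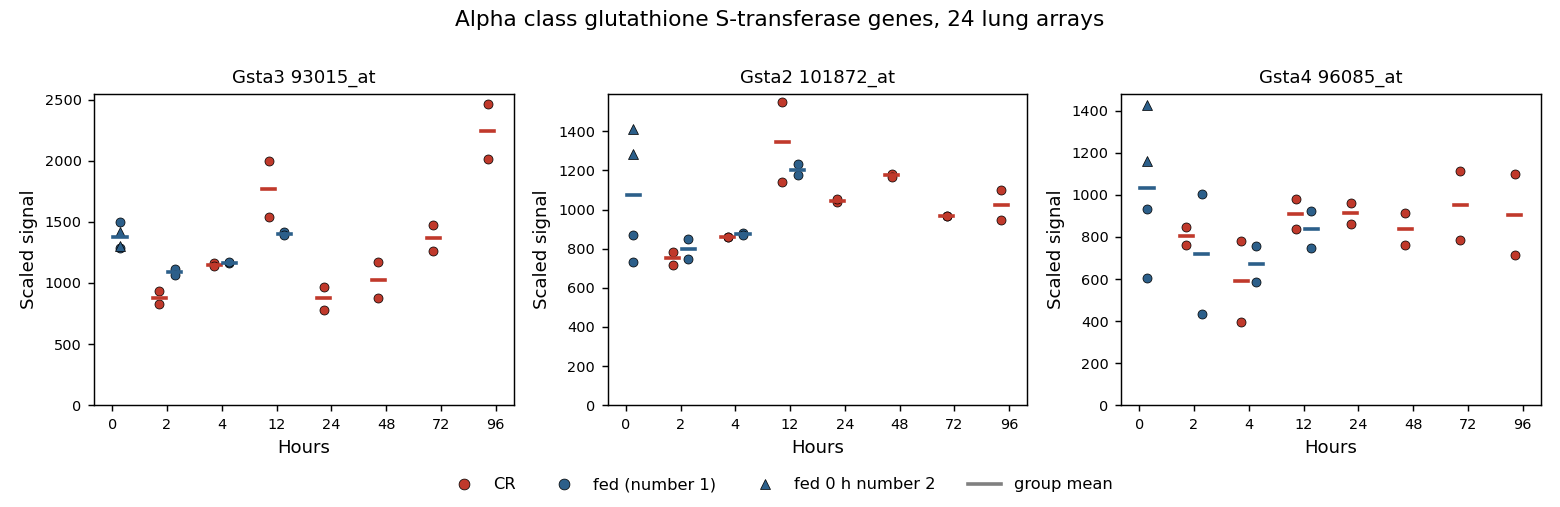
Scaled signal (y axis, linear, from 0) by hour (x axis, evenly spaced and not to scale) for Gsta3, Gsta2 and Gsta4. Red circles are CR arrays, blue circles fed arrays, blue triangles the fed 0 h arrays of number 2, and bars group means. Gsta3 climbs over the 4 late times, with the CR 96 h arrays at 2465 and 2016 the highest of the 24, while the 2 fed 0 h numbers of Gsta2 stand apart.

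The Gsta3 pattern rests on few arrays. Without CR 96 h array 1a the F test had an adjusted p of 0.0564, and it was 0.0034 to 0.0245 without any other single array. The 24 h call was lost without CR 24 h 1a (adjusted p = 0.0851), CR 24 h 1b (0.287), fed 0 h 1b (0.0763), fed 4 h 1a (0.0517) or fed 4 h 1b (0.0517), and the 96 h call without CR 96 h 1a (0.121) or 1b (0.0617). CR 24 and 48 h lie among the arrays of high top signal and CR 72 and 96 h among those of low top signal. Within these ranges CR 96 h against CR 72 h had a log2 difference of 0.71 (unadjusted p = 0.00127, adjusted p = 1) and CR 48 h against CR 24 h one of 0.22 (adjusted p = 1), in comparisons where 0.0134% of all probe sets passed. The 7 tested club cell markers, the airway cells that carry much of the lung's detoxifying enzymes, summed to 158397 to 169686 at CR 24 h, 150126 to 169326 at CR 48 h, 108882 to 132091 at CR 72 h and 128750 to 128918 at CR 96 h, against 130327 to 147749 in fed 0 h. The macrophage markers summed to 35176 to 39665 over CR 24 and 48 h and 61937 to 67623 over CR 72 and 96 h, against 31475 to 70400 in fed 0 h. The 6 alveolar type II markers summed to 170285 to 202876 over CR 24 and 48 h and 121824 to 147790 over CR 72 and 96 h, against 130579 to 208536 in fed 0 h. Macrophage sums were thus higher at the later pair of times, as Gsta3 was, while type II and club cell sums were lower. Lyz2 is counted in both the macrophage and the type II sum, and the brightest probe sets of a list weigh most in its sum. The type II sums were 170285 to 209390 on all arrays of high top signal, fed ones included, and 119215 to 163133 on the others. They contain Sftpc, the brightest probe set at fed 12 h, so these sums and the range of the arrays are not independent. The split of the type II sums by range is therefore no separate observation. Their fall at the later times cannot be told apart from that range. The part of these cell types in the Gsta3 values was not tested.

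Gsta2 averaged 1053 ± 90.6 in late CR and 1074 ± 325 in fed 0 h (log2 0.02, limma adjusted p = 0.942). Its fed 0 h mean hid 731 and 871 in number 1 and 1410 and 1283 in number 2, and the 8 late arrays, at 948 to 1183, lay between the 2 pairs. It was 1.32-fold higher than number 1 (adjusted p = 0.0141), and over CR 72 and 96 h 1.35-fold lower than number 2 (adjusted p = 0.0497). Gsta4, which acts on 4-hydroxynonenal, was at 901 ± 149 in late CR and 1032 ± 350 in fed 0 h (log2 -0.14, adjusted p = 0.7). The probe set of Gsta1 was under the floor on all 24 arrays.

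The mu class transferases are encoded by neighbouring, similar genes, and several of their probe sets carry the letters f or r, which mark probes that match related sequences or that did not meet all design rules. Their signals therefore cannot be assigned to 1 gene with certainty. None of the 9 tested probe sets passed in the late mean against fed 0 h, with log2 differences of -1.18 (Gstm5 100631_r_at, adjusted p = 0.171) to 0.19 (Gstm3 97681_f_at, 0.345) and a median of -0.235. The brightest, Gstm1 93543_f_at, averaged 29178 ± 2985 in late CR and 28030 ± 7063 in fed 0 h (log2 0.09). Its other probe set, 161633_r_at, was at -0.20. Gstm2 was at -0.31 by 93009_at and at -0.23 by 161357_r_at, and 161357_r_at was 1.53-fold lower than fed 0 h number 2 (996 ± 157 in late CR, 1510 ± 76.7 in number 2, adjusted p = 0.0418). Gstm5 was at -0.49 by 100629_at and -0.36 by 100630_f_at (adjusted p = 0.149 and 0.0945), and Gstm3 97682_r_at at -0.09. Gstm6, with 2 probe sets, and Gstm5 161722_f_at did not pass the filter.

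Among the remaining transferases, Gstt2 had a late log2 difference of -0.45 (limma adjusted p = 0.111), Gstz1, which also works in tyrosine breakdown, -0.33 (0.152), Gstp1, the pi class enzyme, -0.14 (0.416), omega class Gsto1 -0.04 (0.788), and mitochondrial and peroxisomal Gstk1 0.10 (0.589). With Gstt1 these make 6 probe sets, of which 1 passed as lower.

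Enzymes of glutathione synthesis and reduction were not called in the late mean against fed 0 h, with 0 of 5 probe sets past the test and a median log2 difference of 0.001. Gclc, the catalytic subunit of the rate-limiting ligase, read 1866 to 3251 on the 8 late CR arrays, and 1691 and 1236 in fed 0 h number 1 and 2750 and 2847 in number 2. It was thus 1.65-fold higher than number 1 (1.33 to 2.04, limma adjusted p = 0.000491) but at a log2 difference of -0.23 from number 2 (0.377) and of 0.24 from both together (0.356). Gclm, the regulatory subunit, averaged 794 ± 163 in late CR and 806 ± 239 in fed 0 h. Glutathione reductase Gsr averaged 1363 ± 244 in late CR and 1202 ± 77.1 in fed 0 h (log2 0.17, adjusted p = 0.325). Glutathione synthetase Gss was at -0.31 by 101425_at (0.0993) and -0.13 by the dim 162246_r_at (0.8).

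Superoxide dismutases and catalase likewise gave 0 calls among 5 probe sets in the late mean. Cytosolic Sod1 averaged 12128 ± 1244 in late CR and 13686 ± 3130 in fed 0 h (log2 -0.15, limma adjusted p = 0.436) and mitochondrial Sod2 954 ± 110 and 1082 ± 66.2 in the same order (-0.19, 0.283). Extracellular Sod3 averaged 6979 ± 1700 in late CR and 6324 ± 505 in fed 0 h (0.11, 0.618), but 9214 ± 1330 in fed 2 to 12 h lungs, against which late CR was 1.35-fold lower (1.12 to 1.61, adjusted p = 0.0471). The 2 catalase probe sets disagreed between the fed 0 h numbers. Cat 160479_at read 1018 and 1124 in number 1 and 2455 and 2132 in number 2 (2.14-fold lower in number 1, adjusted p = 0.000181), while Cat 161877_f_at read 1384 and 1418 in number 1 and 1308 and 1382 in number 2. In late CR against fed 0 h they stood at log2 0.08 (adjusted p = 0.8) and -0.27 (0.0724).

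Of the stress-inducible pair, Hmox1 averaged 2574 ± 356 in late CR and 2928 ± 126 in fed 0 h (log2 -0.20, limma adjusted p = 0.218). Nqo1, a classical NRF2 target, was dim: its 2 probe sets had a median signal of 156 and 144 and did not pass the filter, as was the case for Gpx7 and for Gpx5 94692_at. Txn1 averaged 13757 ± 2196 in late CR and 19654 ± 6867 in fed 0 h (-0.46, adjusted p = 0.0536) and was 1.84-fold lower against number 1 (adjusted p = 2e-05) but at -0.05 against number 2. Txnrd1, which reduces thioredoxin, averaged 1576 ± 331 in late CR and 1377 ± 201 in fed 0 h (0.18, 0.365). Its 2 CR 96 h arrays, 1968 and 2055, were the highest of the 24, at a log2 difference from fed 0 h of 0.56 that did not pass (0.0833).

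During the first 12 h of CR no member passed against fed lungs of the same hour. In the mean of the 3 early differences 0 of 40 probe sets passed by limma and 0 had an unadjusted p under 0.05, while 0.0269% of all probe sets passed. At 2, 4 and 12 h the members with an unadjusted p under 0.05 numbered 3, 0 and 2, and 0%, 0% and 0.148% of all probe sets passed. The median early log2 difference was -0.003, against -0.018 over all probe sets, with single values of -0.42 to 0.48. For 30 of the 40 probe sets the 95% confidence interval lay within 0.5 log2 units of 0 and for 37 within 1, so that a change past these sizes lies outside the interval for these members. The closest were Gpx5 at 2 h, at 250.1 ± 117 in CR and 80.8 ± 69.3 in fed lungs (unadjusted p = 0.0177, adjusted p = 0.711), and Gpx2 at 12 h, at 1896 ± 4.25 in CR and 1292 ± 55.2 in fed lungs (unadjusted p = 0.0164, adjusted p = 0.763). For Gpx5 a fed 2 h array lay under the floor of 80.4 units, so the difference tested depends on the floor. No member's effect differed between 2, 4 and 12 h (F test, smallest adjusted p = 0.946), and 0% of all probe sets did.

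**Figure D4:**
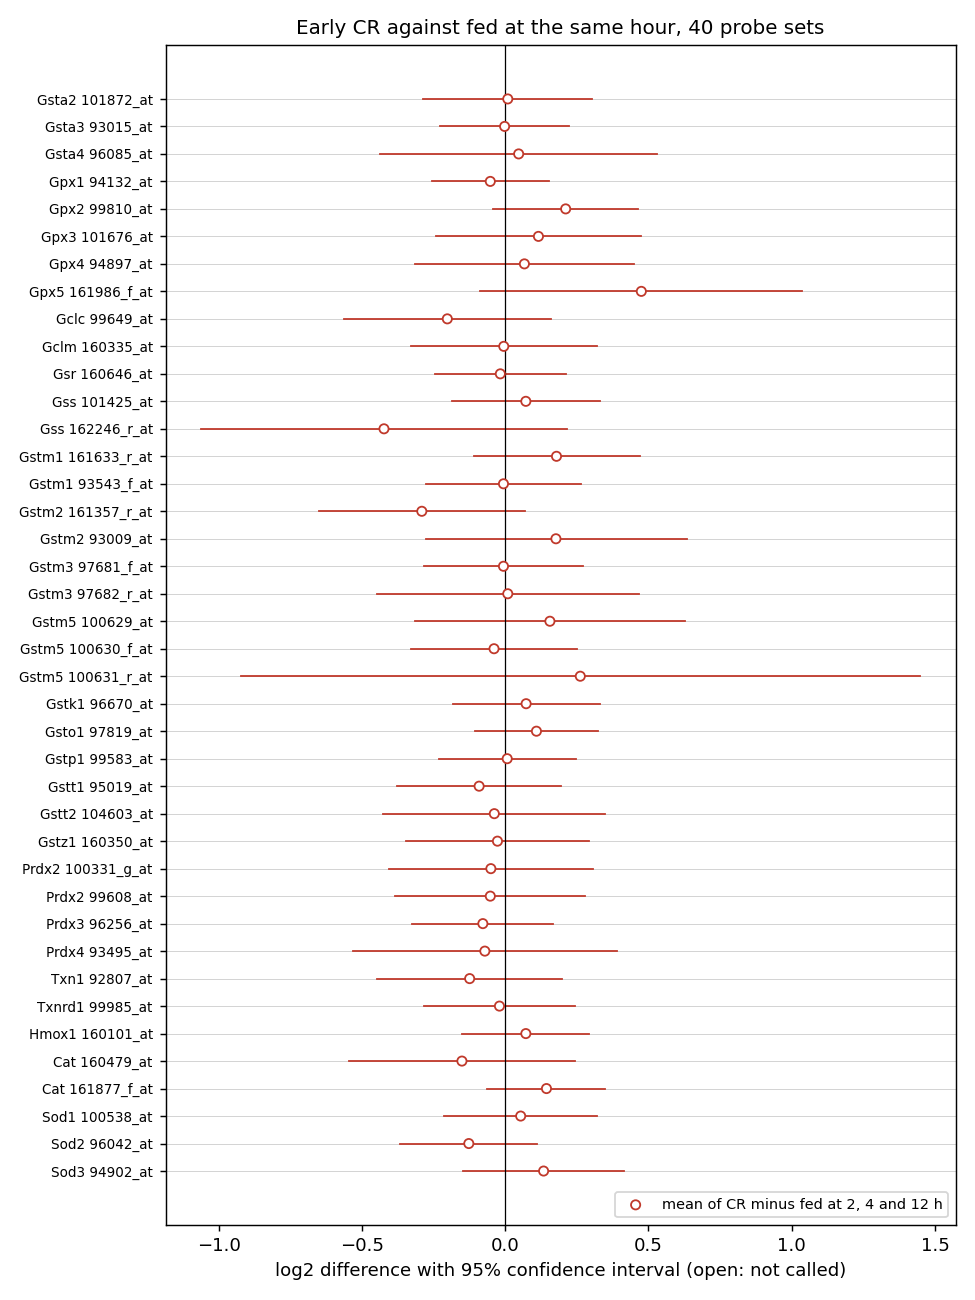
Mean of the log2 differences CR minus fed at 2, 4 and 12 h (x axis) with its 95% confidence interval for each of the 40 tested probe sets (rows). Open circles mark probe sets that did not pass; all 40 are open and all 40 intervals cross 0, the widest being that of Gstm5 100631_r_at.

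In fed mice, 1 member differed between 12 h and 0 h: Gss 101425_at read 982 and 1143 at fed 12 h, against 1662, 1605, 1924 and 2062 at fed 0 h. Both fed 12 h arrays lay below all fed 0 h arrays, and the mean was 1.70-fold lower (limma adjusted p = 0.0398, where 1.92% of all probe sets passed, 1.02% as higher and 0.901% as lower). The adjusted p was 0.0185 against number 1 and 0.00593 against number 2. It was 0.38 without fed 12 h 1a and 0.0871 without 1b, and 0.0506 to 0.056 without any 1 of 12 further arrays (fed 2 and 4 h, CR 2, 12, 24 and 48 h). The mean of fed 2, 4 and 12 h was lower than fed 0 h for Gpx2, at 1239 ± 82.1 and 1999 ± 210 (1.61-fold, 1.32 to 1.96, adjusted p = 0.0147), and for Gstz1, at 2394 ± 265 and 3954 ± 1196 (1.60-fold, adjusted p = 0.0467), with 0 members higher. In this comparison 1.85% of all probe sets passed, 1.13% as higher and 0.726% as lower. With the fed 0 h numbers apart, members passed in 35% (number 1) and 15% (number 2) for fed 12 h, beside 31% and 8.72% of all probe sets, and in 40% and 20% for fed 2 to 12 h, beside 35.8% and 11%. It shares its fed 0 h arrays with the late comparisons. The Gstz1 call was lost in 19 of the 24 fits that left out 1 array (adjusted p = 0.0507 to 0.143), and kept without CR 96 h 1a or 1b, fed 0 h 2a or 2b, or fed 12 h 1b. Against number 2 alone Gstz1 was at a log2 difference of -0.33 (limma adjusted p = 0.2). Its call was also lost with quantile normalization (0.0513), without the filter (0.0881) and without the variance trend (0.0671).

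Regulators of NRF2 were higher in late CR than in fed 0 h in 4 of 6 tested genes, with a median log2 difference of 0.345, against -0.005 over all probe sets, of which 9.85% passed as higher. These were Cul3, the ligase scaffold that marks NRF2 for breakdown (1.46-fold, limma adjusted p = 0.00665), Nfe2l2, which encodes NRF2 itself (3263 ± 379 in late CR, 2520 ± 375 in fed 0 h; 1.30-fold, 0.0142), the repressor Bach1 (1.77-fold, 0.0178) and the KEAP1 partner Sqstm1 (1.23-fold, 0.032). They include activators and repressors of NRF2. Against number 1, 5 of the 6 were higher (25.7% of all probe sets), against number 2 none passed (4.81% of all as higher), and against fed 2 to 12 h the only one that passed was Mafk, a partner in DNA binding (1.44-fold, 0.00423). In fed 12 h lungs, which were read as not restricted, Nfe2l2 was at 3821 ± 52.5, 1.53-fold above fed 0 h (limma adjusted p = 0.0303). None of the other regulators tested passed between these fed groups, where 1.02% of all probe sets passed as higher. The list of regulators was chosen with results of these data known, and its count is a description.

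Of other genes of the pathway some passed as higher and some as lower in late CR against fed 0 h, where 9.85% of all probe sets passed as higher and 8.24% as lower. Several of the counts that follow are near these shares and are no result about their lists. Of 10 thioredoxin and glutaredoxin partners 2 were higher, the thioredoxin inhibitor Txnip (limma adjusted p = 7.5e-05; 1.60-fold against number 2 and 1.28-fold against fed 2 to 12 h) and the stress-induced sestrin Sesn1 (1.57-fold, 0.00418), and Txnl1 was lower (1.51-fold, 0.0282). Of 9 genes of NADPH supply 0 passed. Nearest were Tkt (log2 0.28, adjusted p = 0.104) and Mthfd2 (-0.32, 0.22). Of 10 further genes of glutathione handling the dipeptidase Dpep1, which acts in the breakdown of glutathione (1.65-fold, 0.0197) and the amino acid transporter heavy chain Slc3a2 (1.59-fold, 0.0237) were higher, and the microsomal transferases Mgst1 (1.33-fold, 0.0168) and Mgst3 (1.43-fold, 0.0136) were lower. Of 16 other detoxification enzymes Sult1a1, a sulfotransferase, was at 1017 ± 56.7 in late CR and 360.1 ± 166 in fed 0 h (3.07-fold higher, 4.83e-05). The aldehyde dehydrogenases Aldh2 (10427 ± 1450.5 in late CR, 6937 ± 904 in fed 0 h, 0.00187) and Aldh3a1 (1.43-fold, 0.0363) were higher too, and the copper chaperone Atox1 was lower (1.78-fold, 0.0255).

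Among 9 tested sources of oxidants, Xdh, the xanthine dehydrogenase that can release superoxide and hydrogen peroxide, averaged 4286 ± 1046 in late CR and 1197 ± 613 in fed 0 h (3.83-fold higher, limma adjusted p = 6.33e-06). Alox12 was 1.95-fold higher (0.0304) and the NADPH oxidase activator Rac2 1.33-fold lower (0.0188). Xdh was also higher against each alternative control, 5.51-fold against number 1 (9.6e-09), 2.66-fold against number 2 (3.3e-05) and 1.82-fold against fed 2 to 12 h (0.00673). Sult1a1, Aldh2, Txnip and Sesn1 passed as higher against all 3 of these controls as well. Between fed groups, Xdh was 2.34-fold higher at 12 h than at 0 h (limma adjusted p = 0.0398). In the early mean no gene of these 6 lists passed, the smallest unadjusted p being that of Ahcy (0.0181, adjusted p = 0.999).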

How the data were processed

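The deposited values were linear signal intensities, 1 per probe set and array, from 24 arrays. By their values they have 2% trimmed means of 800.4 to 800.494. The software that summarized the probes was not given in the sources used here. The 25th array, one of another platform whose title and description give different treatments, was not analysed here.

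The 66 control probe sets were left out of 12488, and a factor per array (0.920 to 1.05) brought all array medians to their common median. Values under 80.4, the 25th percentile, were set to it, and log2 was taken of the deposited intensities so scaled. Means and SDs are of the scaled signals before the floor. Of the 12422 remaining probe sets 10833 had 1 symbol in the platform annotation, 396 several and 1193 none. All 49 members matched the reference gene table by Entrez ID.

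limma 3.58.1 in R 4.3.3 fitted 11 group means to 24 arrays with a variance trend and 13 residual degrees of freedom. A fit with fed 0 h split by number gave the comparisons by number. Tests were two-sided, with Benjamini-Hochberg adjustment over 7440 probe sets. The number of arrays limits the precision.

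All 40 members that passed the filter are named. Of each list, up to 4 called genes by smallest p are named, or the 2 with the smallest p where none was called. The rule for members, which uses symbols alone, and the lists were set with earlier results of these data known. Alternatives were other normalizations, no floor, no filter, no trend, other controls, other sets of arrays, averaged letters, the letter as a block and leaving out each array.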

Additional observations from a re-analysis of the deposited data

Results flagged for a closer look

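Gsta3 93015_at was singled out because its difference from fed 0 h was not the same at CR 24, 48, 72 and 96 h, by a test of that difference (limma moderated F test, adjusted p = 0.00441). The 24 h arrays were 1.58-fold below fed 0 h and the 96 h arrays 1.62-fold above. The adjusted p of the F test was 0.0564 without CR 96 h array 1a.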

How the results depend on the processing

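Counts are of the 40 member probe sets. Leaving out each array in turn gave, for late CR against fed 0 h, 0 to 1 higher and 1 to 8 lower: 1 without fed 0 h 1a or 1b, and 8 without CR 96 h 1a or fed 0 h 2b. It gave 0 to 0 higher and 0 to 6 lower at CR 24 h and at CR 48 h, 0 to 0 higher and 0 to 5 lower at CR 72 h, and 0 to 2 higher and 0 to 4 lower at CR 96 h. For fed 12 h against 0 h it gave 0 to 0 higher and 0 to 4 lower, for fed 2 to 12 h 0 to 1 higher and 1 to 5 lower, for number 1 against number 2 9 to 12 higher and 5 to 7 lower, for differences between late times 0 to 2, and 0 to 0 in every early comparison.

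Quantile normalization gave 1 higher in late CR, 1 higher at CR 48 h, 1 higher and 3 lower at CR 72 h, 2 higher at CR 96 h, and 2 higher and 1 lower in fed 2 to 12 h. No further scaling gave 2 lower at CR 72 h and 1 higher in fed 2 to 12 h. No floor gave 2 lower at CR 96 h. No filter gave 1 lower at CR 48 h, 0 lower at CR 96 h and 1 lower in fed 2 to 12 h. It also lost the late calls of Prdx4 (limma adjusted p = 0.0943) and Gpx4 (0.076) and the CR 72 h call of Prdx2 99608_at (0.0661). No variance trend gave 2 lower at CR 96 h, 0 lower in fed 12 h and 1 lower in fed 2 to 12 h, and lost the late call of Prdx4 (limma adjusted p = 0.0513). With a and b averaged, which leaves fewer samples, 0 were lower in late CR. Fitted on the arrays compared alone, 1 was lower in late CR, and 0 were lower at CR 24, 72 and 96 h and in fed 12 h and fed 2 to 12 h, with 0 higher at CR 96 h.

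Against number 1, higher and lower were 5 and 12 in late CR, 4 and 11 at CR 24 h, 5 and 10 at 48 h, 3 and 11 at 72 h, 7 and 11 at 96 h, 4 and 12 in fed 2 to 12 h, and 1 and 13 in fed 12 h. Against number 2 they were 1 and 1 in late CR, 1 and 2 at CR 24 h, 2 higher at 48 h, 1 and 0 at 72 h, 2 and 0 at 96 h, 2 and 6 in fed 2 to 12 h, and 1 and 5 in fed 12 h. Against fed 2, 4 and 12 h they were 1 and 2 in late CR, 0 lower at CR 24 h and at 72 h, and 2 and 0 at 96 h. Within 1 range of top signal, CR 24 and 48 h against number 1 gave 5 and 13, and CR 72 and 96 h against number 2 gave 1 and 1. Between late times within 1 range, chosen after seeing the data, 0 members differed for CR 48 h against 24 h and 0 for CR 96 h against 72 h. The direction turned for Gpx4 (0.09 against fed 2, 4 and 12 h) and Prdx4 (0.13 for CR 72 and 96 h against number 2). Beyond fewer samples or probe sets, the cause of these changes was not tested.

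Little sign of a letter effect shared across groups was seen: over 66 pairs of groups the correlation of letter a deviations was -0.190 to 0.123, with 2 over 0.1. Such correlations between groups cannot show whether a and b of 1 group came from the same mouse. With the letter as a replicate block, Gss at fed 12 h was at -0.77 with an adjusted p of 0.0516, no other count crossed 1.5 times, and the F test of Gsta3 had an adjusted p of 0.00949. The 9 member probe sets that did not pass the filter gave no test.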
